A study of Mus musculus with 151 samples.

Results

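Cdh13 and the cadherins and catenins named with it were followed in mouse ovaries, germ cells and cumulus cells from offspring conceived by mating or by in vitro fertilization (IVF). They were 6 of the 35976 genes counted in each of 7 tables, chosen by name: Cdh13, Cdh2, Cdh3, Cdh11, Ctnna1 and Ctnnb1. Cdh13 was picked because its IVF difference changed direction between ovary ages, so its ovary values are a description and carry no test. Natural offspring came from CF-1 females mated to B6/SJL males. IVF offspring came from superovulated CF-1 females whose eggs were fertilized in vitro, cultured to the blastocyst and transferred to pseudopregnant CF-1 females. Adult cohorts of both groups were delivered by cesarean section and fostered. By the paper's account Natural pups were delivered at E18.5 and IVF pups later, and this timing cannot be told apart from conception. RNA was sequenced from E18.5 ovaries (4 Natural, 6 IVF), 12-week ovaries (4 Natural, 5 IVF) and 39-week ovaries (5 Natural, 5 IVF). The smaller samples were E13.5 primordial germ cells (PGCs, 4 Natural and 5 IVF pools), single oocytes at 12 weeks (36 Natural, 40 IVF) and at 39 weeks (9 Natural, 10 IVF), and 12-week cumulus cells (5 Natural, 5 IVF pools). Oocytes and cumulus cells were collected after superovulation. The labels put 1 Natural 39-week ovary, replicate 5, at 39 weeks in its title and at 40 weeks elsewhere. An adult ovary library held RNA from a piece of an ovary and an E18.5 library from a whole gonad, so all cell types were mixed, and fewer cells of a type and less RNA per cell cannot be told apart. The labels do not name the animal behind each library, so a p-value measures the spread between these libraries.

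Cadherins are calcium-dependent adhesion proteins that hold like cells together. In a classical cadherin such as Cdh2 (N-cadherin), Cdh3 (P-cadherin) or Cdh11 (OB-cadherin), the tail inside the cell binds beta-catenin, encoded by Ctnnb1, and alpha-catenin, encoded by Ctnna1, ties that complex to actin. Cdh13 (T-cadherin) is anchored in the membrane by a lipid and has no such tail. It binds the fat-cell hormone adiponectin and is best known from blood vessels and muscle. Beta-catenin also carries WNT signals to the nucleus, which matters in ovary development and in granulosa cells. N-cadherin joins granulosa cells to each other, and E-cadherin (Cdh1) is known from oocytes and epithelia.

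Total counts ranged from 6995713 to 14830788 in E18.5 ovaries, from 2839022 to 43363799 in 12-week ovaries and from 18079970 to 38751638 in 39-week ovaries. The shallowest ovary library was 12-week IVF replicate 4. Levels are given as CPM, the counts of a gene per 1e6 counts, scaled within each table by the trimmed mean of M-values (TMM). Differences are log2 fold changes, IVF minus Natural, from edgeR's quasi-likelihood fit with its standard error (SE). A call means a Benjamini-Hochberg adjusted p below 0.05 over all genes tested. Among counts of 1 to 49, 64.9% to 78.3% were even in each table, so many values appear to count both reads of a pair and counting error is larger than the counts alone imply.

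Cdh13 was low in every ovary. IVF libraries lay under Natural ones in the fetal and 12-week ovaries, whereas in the oldest ovaries the IVF mean was the higher one. The gene spans 8:118283733-119324921 on the plus strand of GRCm38, with 21 blocks of exons totalling 11233 bases. None of the 5 annotated genes inside its span, which include the antisense genes Gm45720 and Gm45721, shares an exonic base with it.

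At E18.5 Cdh13 measured 5.93, 4.88, 6.31 and 9.64 CPM in Natural ovaries 1 to 4. It measured 4.71, 3.22, 3.64, 3.39, 2.48 and 1.29 CPM in IVF ovaries 1 to 6. All 6 IVF libraries lay below all 4 Natural libraries, the nearest pair being 4.71 and 4.88. The means were 6.69 ± 2.06 (SD, n = 4) and 3.12 ± 1.15 (SD, n = 6), a log2 difference of -1.08 (SE 0.32). These values rest on 54 to 141 counts in Natural and 12 to 56 counts in IVF libraries. At this age 8.7% of the genes tested had groups that did not overlap. The direction chose the gene, so nothing is read from that share.

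In 12-week ovaries Cdh13 measured 7.68, 8.79, 10.2 and 11.5 CPM in Natural libraries 1 to 4. It measured 4.24, 5.81, 2.86, 4.58 and 7.52 CPM in IVF libraries 1 to 5. Again no IVF library reached a Natural one, although IVF 5 and Natural 1 nearly met. The log2 difference was -0.88 (SE 0.27), between means of 9.54 ± 1.67 (SD, n = 4) and 5.00 ± 1.76 (SD, n = 5). The groups of 5.92% of genes did not overlap in this table. The lowest value, that of IVF 3, rests on 28 counts, and the log2 difference without that library was -0.73. IVF 4, the shallowest library, held 14 counts.

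By 39 weeks the Natural level was 3.11, 3.56, 6.41, 3.46 and 3.49 CPM in libraries 1 to 5. IVF libraries 1 to 5 measured 18.7, 14.9, 4.36, 6.40 and 6.09 CPM. IVF 1 and 2 stood above every Natural library. The other 3 IVF libraries lay between the lowest and the highest Natural value, because Natural 3 stood well above the rest of its group. The means were 4.01 ± 1.36 (SD, n = 5) and 10.1 ± 6.30 (SD, n = 5), and the log2 difference was 1.33 (SE 0.42). Without IVF 1 it was 0.97. In the fit of all 29 ovaries, the IVF difference at 39 weeks exceeded that at 12 weeks by 2.20 on the log2 scale (SE 0.51). The difference at 12 weeks exceeded that at E18.5 by only 0.21 (SE 0.52).

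**Figure D1:**
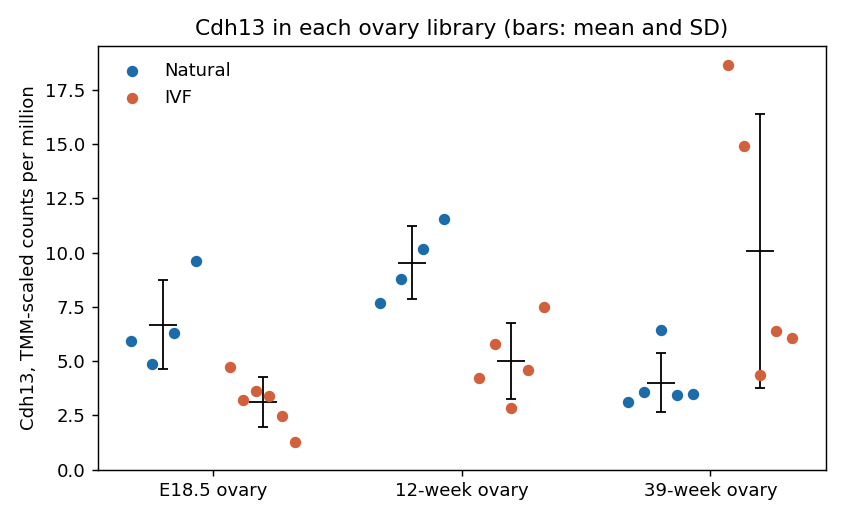
Cdh13 in TMM-scaled CPM (vertical axis) for each ovary library, with the ages side by side (horizontal axis). Points are libraries (blue Natural, orange IVF) and bars give the mean and SD. IVF libraries sit below all Natural ones at the first 2 ages, and IVF 1 and 2 reach 18.7 and 14.9 at 39 weeks.

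Within Natural ovaries the Cdh13 level went from 6.69 at E18.5 to 9.54 at 12 weeks and 4.01 CPM at 39 weeks. Within IVF ovaries it went from 3.12 to 5.00 and 10.1 CPM. The 3 ages were counted in separate tables, so age and sequencing cannot be told apart. In the joint fit the Natural differences were 0.58 (SE 0.39) for 12 weeks against E18.5 and -1.11 (SE 0.37) for 39 against 12 weeks, on the log2 scale.

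Outside the ovary tissue Cdh13 was near or under the floor of 3 counts, except in oocytes. PGC pools held 0 to 7 counts, with 2 of 4 Natural and 3 of 5 IVF pools at 0. Cumulus pools were at 0 in 9 of 10 cases, and IVF 2 had 1 count. A floor of 3 counts is 0.49 to 1.03 CPM in the cumulus table, counting error only. Cdh13 did not pass the filter on low counts in either table and was not compared there.

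In 12-week oocytes, counts were summed over oocytes whose library names share their leading fields, giving 5 sets a group. That such a set is a collection is an assumption, since the labels name no animal. No Natural set shared its first field with an IVF set. Sets that share that field may not be independent, in which case the SE and p are too small. Cdh13 measured 0.88, 2.25, 1.91, 1.74 and 1.30 CPM in Natural sets and 1.54, 1.12, 1.18, 3.54 and 1.80 CPM in IVF sets. The groups overlapped almost completely, and the single high value was IVF set 4. The log2 difference was 0.21 (SE 0.38, 95% interval -0.62 to 1.04, edgeR adjusted p = 0.956). Of 14444 genes in these oocytes 0.0277% were called. A Cdh13 count was found in 33 of 36 Natural and 34 of 40 IVF oocytes.

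In 39-week oocytes the labels name no animal, so each group counts as 1 sample and no test was made. Cdh13 ranged from 0.30 over a median of 4.89 to 7.55 CPM in 9 Natural oocytes. It ranged from 0 over a median of 1.21 to 3.58 CPM in 10 IVF oocytes, where 7 of 10 had a count against 9 of 9 Natural ones. With counts summed over oocytes the levels were 5.02 and 1.12 CPM. Natural oocytes 6 and 9 stood apart, with summed oocyte markers of 2378 and 4521 CPM against 16323 or more in all other oocytes of the table. Without them the Natural median of Cdh13 was 3.74 CPM.

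Of the 5 members other than Cdh13, edgeR called 0 at any of the 3 ages, none had an unadjusted p below 0.05, and DESeq2 also called 0. The background was 5.43% of 16415 genes called at E18.5, 0.00567% of 17628 at 12 weeks and 0.262% of 17186 at 39 weeks. At edgeR's unadjusted p below 0.05 it was 3960, 2544 and 3303 of these genes.

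Cdh2, located at 18:16588877-16809246 on the minus strand, ran from 16.5 to 69.8 CPM among 12-week ovaries. At E18.5 Natural libraries 1 to 4 measured 60.05, 42.7, 45.5 and 42.2 CPM. IVF libraries 1 to 6 measured 50.2, 62.1, 56.0, 57.4, 61.7 and 48.7 CPM. Natural 1 overlapped the IVF range, and the log2 difference was 0.25 (95% interval -0.03 to 0.53, edgeR adjusted p = 0.252). In 12-week Natural ovaries Cdh2 measured 60.1, 17.6, 16.5 and 32.8 CPM. In the IVF ovaries of that age it measured 69.8, 26.8, 59.3, 49.1 and 31.0 CPM. The IVF mean was higher, but Natural 1 exceeded 4 of the 5 IVF libraries. The log2 difference of 0.61 had an interval of -0.33 to 1.54 (edgeR adjusted p = 0.519), which leaves room for a difference in either direction. At 39 weeks the means were 47.8 ± 17.3 (SD, n = 5) and 49.0 ± 17.4 CPM (SD, n = 5).

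Cdh3, at 8:106510891-106557297 on the plus strand, was measured at 65.4, 65.2, 78.1 and 52.6 CPM in E18.5 Natural ovaries. E18.5 IVF ovaries 1 to 6 measured 47.8, 58.3, 53.7, 66.7, 50.03 and 47.1 CPM. Of the IVF libraries, 3 lay below all Natural ones. The log2 difference was -0.26 (95% interval -0.56 to 0.03, edgeR adjusted p = 0.256). At 12 weeks the means were 19.7 ± 4.27 (SD, n = 4) and 19.5 ± 3.16 CPM (SD, n = 5). At 39 weeks they were 13.8 ± 2.02 (SD, n = 5) and 16.5 ± 2.305 CPM (SD, n = 5), with a log2 difference of 0.25 (95% interval -0.06 to 0.56, edgeR adjusted p = 0.336).

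Cdh11, which marks mesenchymal cells in many organs and lies at 8:102632095-102785642 on the minus strand, had means of 245 ± 77.6 (SD, n = 4) and 264 ± 76.2 CPM (SD, n = 6) at E18.5. At 12 weeks the means were 66.7 ± 8.76 (SD, n = 4) and 78.9 ± 21.4 CPM (SD, n = 5). At 39 weeks they were 78.6 ± 21.0 and 75.8 ± 16.2 CPM (SD, n = 5 each). The groups overlapped at every age, and edgeR's adjusted p ran from 0.502 to 0.887.

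Of the catenins, Ctnna1, at 18:35118859-35254779 on the plus strand, measured 269, 297, 299, 287 and 280 CPM in 39-week Natural ovaries. The 39-week IVF ovaries measured 337, 314, 303, 315 and 344 CPM. All 5 IVF libraries were above all 5 Natural ones, a pattern seen for 5.04% of genes at this age in one direction or the other. The log2 difference was small, 0.17 (95% interval -0.0047 to 0.34), and was not called (edgeR adjusted p = 0.270). At E18.5 the Ctnna1 means were 259 ± 29.7 (SD, n = 4) and 249 ± 16.4 CPM (SD, n = 6), and at 12 weeks they were 308 ± 18.2 (SD, n = 4) and 293 ± 25.4 CPM (SD, n = 5). Ctnna1 shares 95 exonic bases with Lrrtm2 on the other strand.

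Ctnnb1, at 9:120929216-120960507 on the plus strand, had Natural means of 864 ± 163 (SD, n = 4), 833 ± 85.6 (SD, n = 4) and 834 ± 21.7 CPM (SD, n = 5) at the 3 ages. The IVF means were 833 ± 117 (SD, n = 6), 837 ± 101 (SD, n = 5) and 892 ± 78.5 CPM (SD, n = 5). None of these differences was called, and the 39-week interval ran from -0.13 to 0.32 on the log2 scale. Ctnnb1 shares 759 exonic bases with Ulk4 on the opposite strand. Whether strand was used in counting is not given in the sources used here, so those reads may belong to either gene.

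**Figure D2:**
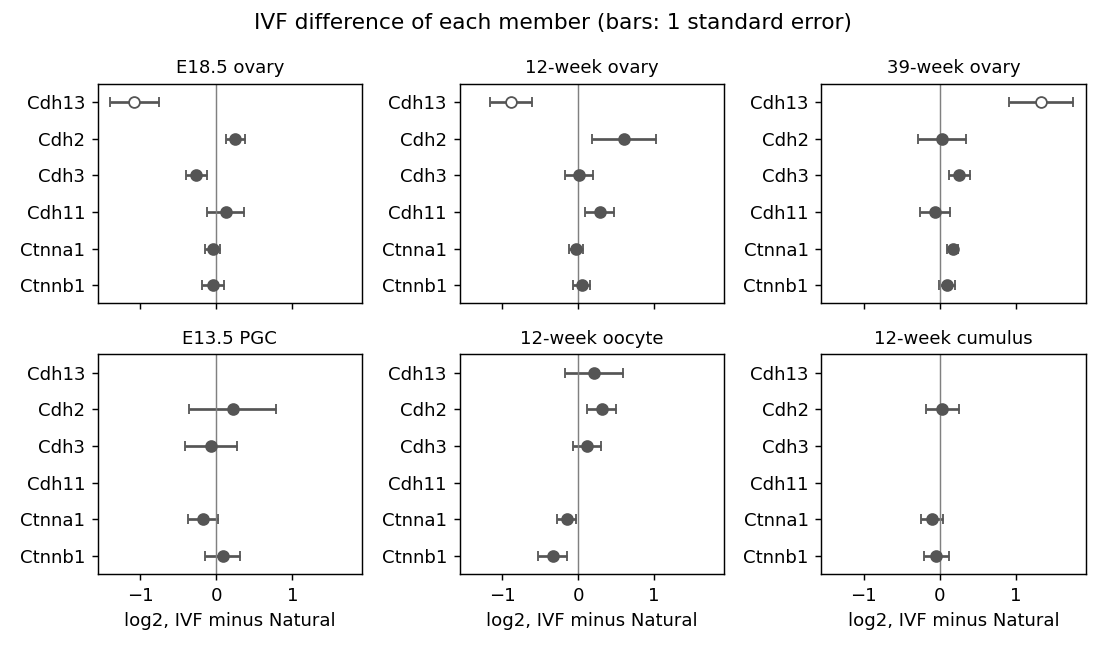
Log2 fold change, IVF minus Natural (horizontal axis), of each member (vertical axis) in 6 tables, with bars of 1 standard error. Open points are Cdh13 in ovaries, which was chosen by these values, and a missing point is a gene that did not pass the filter on low counts. The 3 open points, at -1.08, -0.88 and 1.33, lie farther from 0 than any other point.

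Whether the IVF difference itself changed with age was tested for the other 5 members in 1 fit of all 29 ovaries. EdgeR called 0 of them between 39 and 12 weeks (adjusted p from 0.408 to 0.942) and 0 between 12 weeks and E18.5 (adjusted p from 0.572 to 0.907). None had an unadjusted p below 0.05 and DESeq2 called 0 in both. Over 19724 genes the shares called were 2.71% and 0.314%, and 3947 and 2766 genes had an unadjusted p below 0.05. The intervals were widest for Cdh2, from -1.55 to 0.39 on the log2 scale between 39 and 12 weeks.

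Between E18.5 and 12 weeks in Natural ovaries Cdh3 fell by 1.66 (SE 0.17) and Cdh11 fell by 1.82 (SE 0.27) on the log2 scale, with edgeR adjusted p of 1.55e-08 and 4.14e-06. In Natural libraries Cdh3 went from 52.6 to 78.1 CPM at E18.5 to 15.4 to 24.3 CPM at 12 weeks, and Cdh11 from 166 to 330 CPM to 58.7 to 79.0 CPM. Ctnna1 rose by a small amount, 0.31 (SE 0.09, edgeR adjusted p = 0.00725). Cdh2 (-0.53, SE 0.36) and Ctnnb1 (0.01, SE 0.14) were not called. Between these ages 49.7% of all genes were called, 25.3% higher and 24.3% lower, so 3 of 5 members is near the background.

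From 12 to 39 weeks edgeR called 0 of the 5 members, where 21.6% of genes were called, and DESeq2 also called 0. At an unadjusted p below 0.05 there were 6720 of 19724 genes and 2 of the 5 members, Cdh2 with 0.74 (SE 0.35) and Cdh3 with -0.37 (SE 0.16). Their edgeR adjusted p was 0.131 and 0.102. 12-week Natural replicate 1 had the highest Cdh2 of its group, and without it Cdh2 was called, at 1.25, as it was between E18.5 and 12 weeks, at -1.02. Cdh3 was called without 12-week Natural replicate 3, at -0.48, and without 39-week Natural replicate 4, at -0.47.

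Per kilobase of exon, the order of levels in 12-week Natural ovaries ran from Ctnnb1 at 161 ± 16.5 CPM over Ctnna1 at 47.9 ± 2.83, Cdh11 at 7.49 ± 0.98, Cdh3 at 4.50 ± 0.97 and Cdh2 at 3.93 ± 2.52 to Cdh13 at 0.85 ± 0.15 (SD, n = 4 each). Cdh3 and Cdh2 did not differ beyond their spread. In E18.5 Natural ovaries Cdh11 stood at 27.5 ± 8.72 and Cdh3 at 14.9 ± 2.38 CPM per kilobase, and Cdh13 was again last at 0.60 ± 0.18 (SD, n = 4 each).

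In isolated cells the members separated by cell type. Cdh11 measured 1.34 CPM or less in every PGC pool and 1.56 CPM or less in every cumulus pool. In 12-week oocytes it was found in 4 of 36 Natural and 10 of 40 IVF cells. Cdh3 was present in the germ cells, with means of 50.6 ± 16.2 CPM (SD, n = 4) in Natural PGCs and 39.7 ± 4.21 CPM (SD, n = 5) in Natural 12-week oocyte sets, against 0.74 ± 0.44 CPM (SD, n = 5) in Natural cumulus pools. Cdh2 had 25.0 ± 6.03 CPM in Natural cumulus cells and 18.2 ± 2.95 CPM in oocyte sets (SD, n = 5 each) but 7.08 ± 6.38 CPM in PGCs (SD, n = 4). These levels come from tables scaled separately and were not tested against each other.

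Ctnnb1 reached its highest mean, 1047 ± 202 CPM (SD, n = 5), in Natural 12-week oocyte sets, above 613 ± 103 CPM (SD, n = 4) in PGCs and 222 ± 79.2 CPM (SD, n = 5) in cumulus cells. The 39-week oocyte table, another library set, gave Natural oocytes a median of 196 CPM. Ctnna1 varied less across tables, from a Natural mean of 144 ± 43.4 CPM (SD, n = 5) in cumulus cells to 308 CPM in 12-week ovaries.

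**Figure D3:**
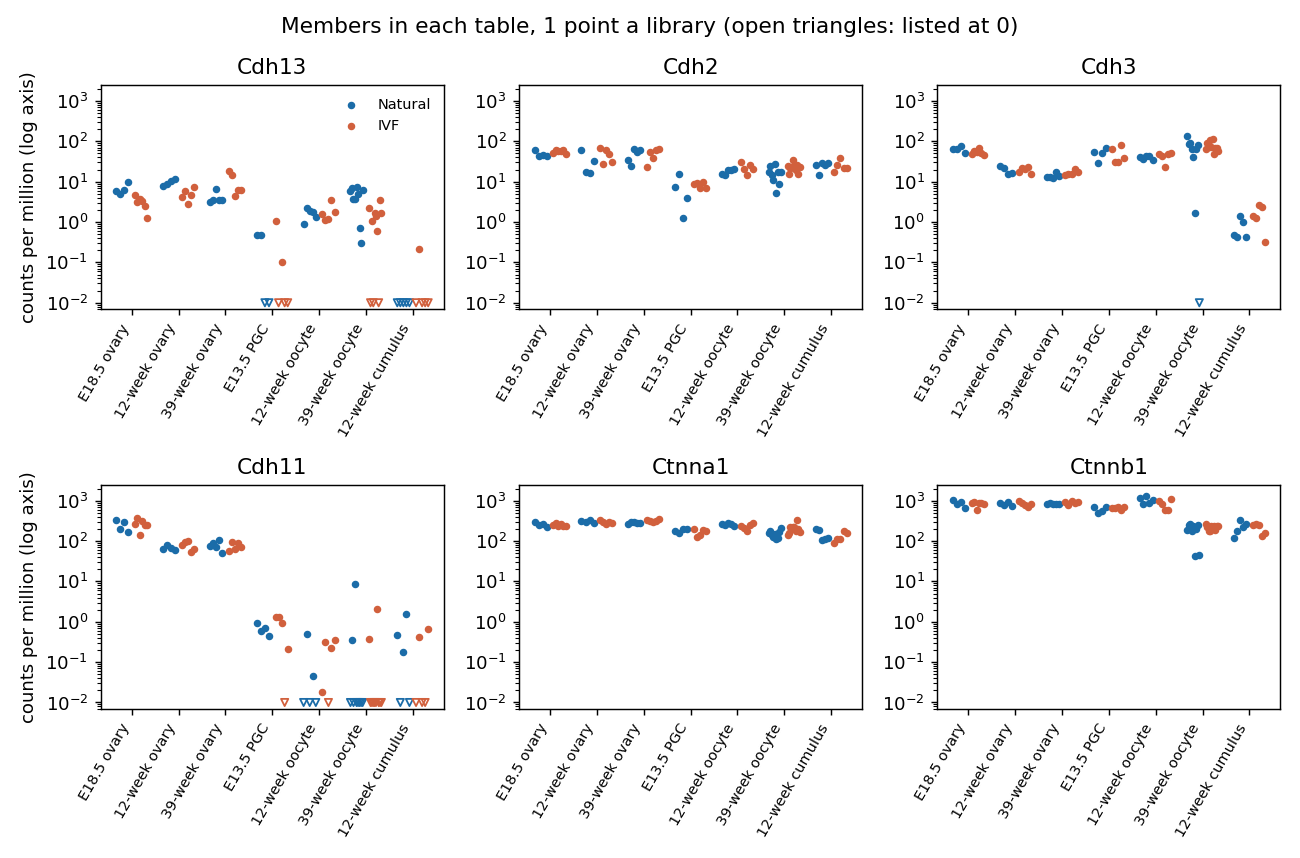
CPM on a log axis (vertical) for each member in the 7 tables (horizontal), 1 point a library or 12-week oocyte set, blue Natural and orange IVF, with open triangles for values listed at 0. Cdh13 and Cdh11 drop toward 0 in PGCs and cumulus cells, and Cdh3 in cumulus cells and in the 39-week oocytes Natural 6 and 9. Ctnnb1 has its highest mean in Natural 12-week oocyte sets, which overlap other groups, and the IVF sets average 824 CPM.

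In none of the isolated cell types was a member called for IVF. In PGCs, 4 of the 6 members passed the filter on low counts (Cdh13 and Cdh11 did not) and edgeR called 0, with 0 at an unadjusted p below 0.05 and 0 by DESeq2. Of all 12763 genes 0% were called there, 349 had an unadjusted p below 0.05, and DESeq2 also called 0. In 12-week oocyte sets 963 of 14444 genes had an unadjusted p below 0.05 and 0.0277% were called. There 5 members passed (Cdh11 did not) and 0 were called by either tool or at an unadjusted p below 0.05. The widest difference was that of Ctnnb1, at 1150, 830, 1328, 885 and 1042 CPM in Natural sets and 1012, 807, 583, 599 and 1118 CPM in IVF sets. IVF sets 2, 3 and 4 lay below all Natural sets, and the log2 difference was -0.33 (95% interval -0.75 to 0.08, edgeR adjusted p = 0.815). In cumulus cells Cdh2, Ctnna1 and Ctnnb1 passed, 0 were called by either tool or at an unadjusted p below 0.05, and 0.00973% of 10280 genes were called. The cumulus library labelled Natural 5 shares the leading fields of its name with a set of IVF oocytes. The other cumulus libraries with such names share theirs with oocyte sets of their own label. Natural 5 was kept as labelled, so the Natural cumulus means and the cumulus comparison rest on a label that was not settled.

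In 39-week oocytes the medians of 4 members were higher in IVF and that of Cdh13 was lower, while Cdh11 was at 0 in 7 of 9 Natural and 8 of 10 IVF oocytes. Cdh2 had a median of 17.1 CPM (5.31 to 27.8) in Natural and 22.4 CPM (15.7 to 35.4) in IVF oocytes. Ctnna1 had 146 CPM (114 to 209) and 210 CPM (144 to 339). Cdh3 (65.7 and 68.9 CPM) and Ctnnb1 (196 and 228 CPM) turned with the 2 oocytes that stood apart. Natural 6 and 9 had Cdh3 at 1.70 and 0 CPM and Ctnnb1 at 42.2 and 44.9 CPM, and without them the Natural medians were 80.4 and 235 CPM, above the IVF ones.

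The rest of the cadherin system was read from lists of genes not chosen by Cdh13. Of 19 other cadherins, 13 were tested at E18.5, where 1 was higher with IVF and 0 were lower (median log2 difference 0.25, against 0.00021 over all genes). At that age 5.43% of all genes were called. The gene that rose was Cdh23, known from the hair cells of the inner ear, by 1.15 (SE 0.22, edgeR adjusted p = 0.0154), from 6.71 to 15.3 CPM in Natural to 19.3 to 29.9 CPM in IVF ovaries on the scale of the joint fit. With the replicate number as a block its adjusted p was 0.185. None of the 9 other catenins and linkers, 4 nectins, 2 measured genes of adiponectin and its receptors, or 13 beta-catenin partners passed at that age. At 12 and 39 weeks none of the 5 lists had a called gene. EdgeR's unadjusted p was below 0.05 for 3 of 12 and 2 of 10 other cadherins tested, against 2544 of 17628 and 3303 of 17186 genes.

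Of the 17 other cadherins tested for a difference of the IVF effect between 39 and 12 weeks, 1 was called, Cdh1, and of the 9 other catenins and linkers 1, Jup. Over all genes 2.71% were called. At 12 weeks Cdh1 measured 225, 132, 327 and 119 CPM in Natural and 63.0, 88.9, 7.76, 47.2 and 58.1 CPM in IVF ovaries. At 39 weeks it measured 16.6, 15.4, 8.79, 7.62 and 8.02 CPM in Natural and 444, 6.85, 9.54, 22.7 and 13.1 CPM in IVF ovaries. The groups were apart at 12 weeks, as were those of 5.92% of all genes tested at that age. At 39 weeks the IVF mean was carried by IVF 1. The IVF difference was -1.86 at 12 weeks and 3.16 at 39 weeks in the separate fits, neither called. In the joint fit the 39-week value minus the 12-week value was 4.96 on the log2 scale (SE 1.17, edgeR adjusted p = 0.0315), and without IVF 1 it was 2.07 (adjusted p = 0.118). Jup, which encodes plakoglobin, a close relative of beta-catenin, had mean levels on the scale of the joint fit of 165 ± 32.3 CPM (SD, n = 4) in Natural and 112 ± 18.8 CPM (SD, n = 5) in IVF ovaries at 12 weeks, and of 111 ± 11.7 and 151 ± 56.5 CPM (SD, n = 5 each) at 39 weeks. Its IVF difference was thus of opposite sign at these ages, and the 39-week value minus the 12-week value was 0.99 (SE 0.24, edgeR adjusted p = 0.0338), or without IVF 1 0.74 (adjusted p = 0.0534). With the adult ovaries alone, a fit added after the data were seen, neither was called (adjusted p of 0.0971 and 0.109). Jup was also lost in 9 other fits that each left out 1 library and Cdh1 in 6, which are named with the processing alternatives. Cdh1 was also listed among the oviduct markers.

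With age, Natural ovaries at 12 weeks against E18.5 had 7 of 17 other cadherins lower and 0 higher, where 24.3% of all genes were lower and 25.3% higher. Cdh16 fell by 5.72 (SE 0.90), Cdh10 fell by 4.12 (SE 0.87), Cdh23 fell by 3.27 (SE 0.48) and Cdh7 fell by 2.81 (SE 0.82) on the log2 scale. Cdh10 and Cdh7 were at 0 to 12 and 0 to 3 counts at 12 weeks, so the sizes of their changes depend on the prior count. Of 13 beta-catenin partners 7 were lower and 0 higher, against the same 24.3% and 25.3%, led by Lef1, a DNA-binding partner of beta-catenin, which fell by 3.37 (SE 0.36), and by Axin2, a scaffold of the destruction complex, which fell by 1.44 (SE 0.26). Tcf7l1 fell by 1.32 (SE 0.17) and Bcl9 fell by 0.64 (SE 0.16). Among the 9 other catenins 2 were higher and 5 lower, of which Ctnnd2 fell by 4.86 (SE 0.65) and Ctnnal1 rose by 0.87 (SE 0.15). Of 4 nectins, adhesion proteins that work beside cadherins, Nectin2 fell by 0.28 (SE 0.11) and was lost without any of 5 single libraries. Both adiponectin receptors rose, Adipor2 by 1.20 (SE 0.18) and Adipor1 by 0.61 (SE 0.09), and Adipoq itself went from 0 to 4 counts per library to 8.82 to 193 CPM on the scale of the joint fit, for which no fold is given. The 4 fat markers, Adipoq among them, summed to 14.4 to 29.1 CPM in Natural ovaries at E18.5 and to 65.4 to 716 CPM at 12 weeks, and their part in this was not tested. All of these passed edgeR's adjusted p of 0.05.

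From 12 to 39 weeks in Natural ovaries 2 other cadherins were higher and 1 lower, against 10% and 11.6% of all genes. Cdh5, the endothelial cadherin, rose by 0.69 (SE 0.15) and Cdh8 rose by 2.54 (SE 0.75), while Cdh1 fell by 3.99 (SE 0.89). Over the same ages the oviduct markers, which include Cdh1, summed to 3168 to 7836 CPM and then 24.0 to 179 CPM, and the surface epithelium markers to 558 to 756 CPM and then 24.6 to 155 CPM. Their part in the fall of Cdh1 was not tested. Among the 9 other catenins and linkers 2 were higher and 2 lower, against the same 10% and 11.6%. Ctnna2 rose by 1.67 (SE 0.32) and Ctnnd1 by 0.45, while Ctnnal1 fell by 0.65 (SE 0.14) and Jup by 0.56. Jup lost its call in 4 of 9 fits that each left out 1 library. Nectin2 rose by 0.41 (SE 0.11) and Nectin4 fell by 2.87 (SE 0.85), while of the beta-catenin partners Apc rose by 0.64 (SE 0.18) and Btrc by 0.44 (SE 0.08). None of the 3 genes of adiponectin and its receptors was called by edgeR. An unadjusted p below 0.05 was found for 1 of them and for 6720 of all 19724 genes.

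Across the 29 ovaries, after the mean of each age was subtracted from log2 CPM, the gene most like Cdh13 among 19724 was Nfkbia (Pearson r = 0.878), the inhibitor that holds NF-kB in the cytoplasm and is itself induced by NF-kB. Then came Slc2a1, the glucose transporter GLUT1 (0.792), Tppp3, a tubulin-binding protein (0.787), Crip1, a LIM-domain protein (0.765), and Ier5, an immediate early gene (0.764). These are descriptions over libraries that share age and conception, and they include the pattern that chose Cdh13. With the mean of each age and group subtracted, r was 0.748 for Nfkbia and 0.545 to 0.673 for the others. Without the 2 libraries farthest from their age mean in Cdh13 (39-week IVF 1 and E18.5 IVF 6), Nfkbia stayed at 0.885 and ranked first, while Slc2a1, Crip1 and Ier5 ranked 30, 22 and 91. Among the other members Ctnna1 had 0.329, Cdh3 0.091, Ctnnb1 -0.070, Cdh11 -0.232 and Cdh2 -0.338.

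At E18.5 Nfkbia measured 66.0 to 95.7 CPM in 4 Natural and 48.5 to 65.8 CPM in 6 IVF fetal ovaries. At 12 weeks the ranges were 104 to 127 CPM in 4 Natural and 70.2 to 101 CPM in 5 IVF ovaries. At 39 weeks they were 59.3 to 76.6 CPM in 5 Natural and 64.5 to 107 CPM in 5 IVF ovaries. The Natural and IVF ranges were apart at the first 2 ages and overlapped at 39 weeks, where IVF 1 and 2 were the highest. Nfkbia was picked for its likeness to Cdh13, so nothing is read from this pattern. The groups of 8.7% of genes at E18.5 and 5.92% at 12 weeks did not overlap. The promoter window of Nfkbia from RefSeq (12:55492598-55492897, minus strand, GRCm38.p6) is shown because it is the gene nearest to Cdh13, with the match to the NF-kB consensus on either strand in capitals.
Nfkbia: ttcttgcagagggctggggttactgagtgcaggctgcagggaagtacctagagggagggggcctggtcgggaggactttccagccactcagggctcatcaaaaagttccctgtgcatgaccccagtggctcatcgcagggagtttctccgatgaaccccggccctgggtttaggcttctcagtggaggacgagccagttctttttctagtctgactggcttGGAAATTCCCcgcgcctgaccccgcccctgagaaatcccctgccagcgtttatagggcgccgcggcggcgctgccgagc
The match begins 29 bases before the annotated start. Of 32851 windows of this length, 8.46% hold the motif. It was not in the windows of Slc2a1, Crip1, Ier5 or either start of Ctnnb1, and of the members the windows of Ctnnb1 were read. A match is a description of the letters.

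**Figure D4:**
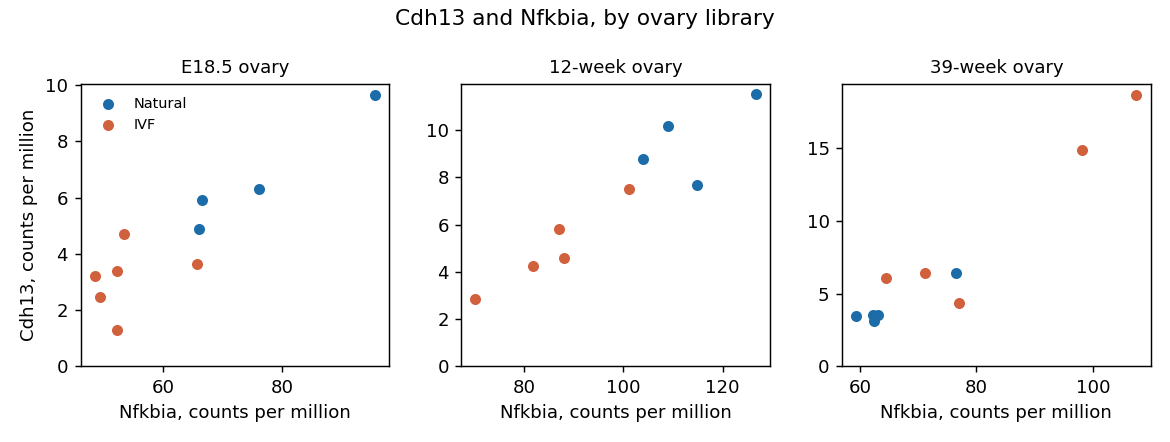
Cdh13 (vertical axis) against Nfkbia (horizontal axis), both in CPM, for each ovary library at the 3 ages, blue Natural and orange IVF. Libraries high in Nfkbia are high in Cdh13 at each age, with r of 0.807, 0.947 and 0.927 on the log2 scale.

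Of the summed marker lists, that of the ovarian surface epithelium had the highest age-centred correlation with Cdh13, followed by smooth muscle and oviduct (below). The 5 genes of the surface epithelium list (Upk3b, Upk1b, Krt18, Krt19 and Msln) were above 0 in every ovary. Their summed level was 578 to 920 CPM in Natural and 374 to 557 CPM in IVF ovaries at E18.5, and 558 to 756 and 90.5 to 338 CPM at 12 weeks, with no overlap at either age. At 39 weeks it was 24.6 to 155 CPM in Natural ovaries, 111 to 195 CPM in 4 IVF ovaries and 1265 CPM in IVF 1. Across the 29 ovaries the age-centred correlation with Cdh13 was 0.671, with age and group centred 0.432, and without the same 2 libraries 0.569. Among Natural libraries, Natural 4 had the highest Cdh13 and the lowest summed level at both E18.5 and 12 weeks. IVF 2 at 39 weeks had Cdh13 at 14.9 CPM with a summed level of 111 CPM, inside the Natural range. The part of these cells in the Cdh13 differences was not tested.

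**Figure D5:**
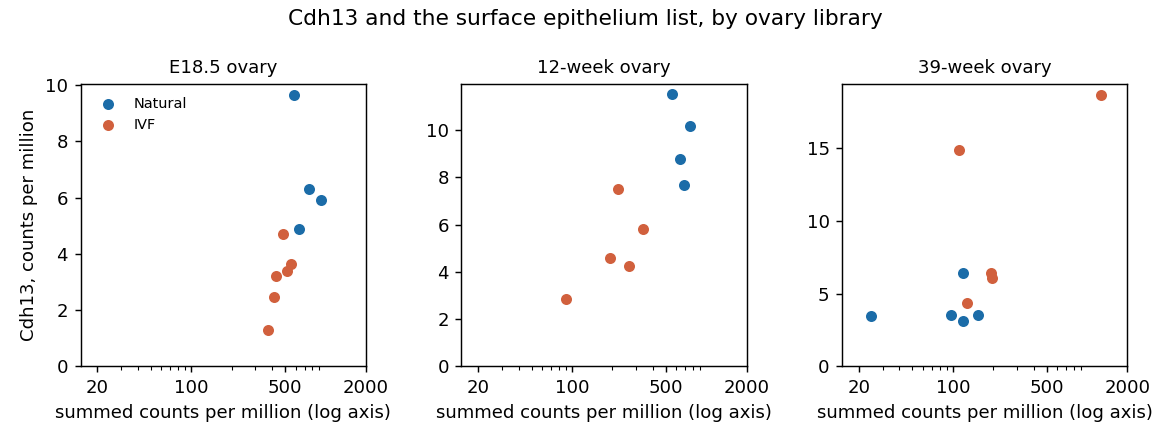
Cdh13 in CPM (vertical axis) against the summed CPM of 5 surface epithelium markers (horizontal log axis), 1 point an ovary library, blue Natural and orange IVF, with a vertical scale of its own for each age. IVF points lie to the left of and below the Natural points at E18.5 and 12 weeks, and at 39 weeks IVF 1 stands apart at 1265 while IVF 2 does not.

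Other tissue also differed between libraries. The 6 oviduct markers summed to 3168 to 7836 CPM in 12-week Natural and to 15.6 to 3000 CPM in 12-week IVF ovaries, also with no overlap. At E18.5 their sums overlapped between the groups. At 39 weeks they summed to 8237 CPM in IVF 1 and to 21.9 to 179 CPM in the other 9 ovaries. The 8 smooth muscle and pericyte markers summed to 870 to 1220 CPM in Natural and 640 to 742 CPM in IVF ovaries at E18.5, and overlapped at both adult ages. The 8 endothelial markers had an age-centred correlation of -0.208 with Cdh13, and Cdh5 itself had IVF differences of -0.19, 0.33 and -0.18 at the 3 ages, none of them called. The same correlation was 0.501 for smooth muscle and 0.482 for the oviduct list. It was -0.0238 for granulosa, -0.357 for luteal, 0.118 for theca, 0.115 for stroma, 0.127 for oocyte, 0.254 for fat, -0.134 for immune and 0.049 for erythroid markers. The 3 erythroid markers summed to 216 to 649 CPM in Natural and 516 to 1554 CPM in IVF ovaries at E18.5. The part of these lists in the Cdh13 differences was not tested.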

How the data were processed

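The authors deposited raw read counts per gene in 1 table a tissue and age. Per the labels, reads were trimmed with Trimmomatic 0.32, aligned to mm10 with STAR 2.3.0e, counted with featureCounts 1.5.0 and compared with DESeq2. The strand setting is not given in the sources used here. In the ovary tables, 25 rows each have a number in place of a gene symbol.

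Counts were compared within each table with edgeR 4.0.16 in R 4.3.3 (TMM scaling, filterByExpr, quasi-likelihood test, Benjamini-Hochberg adjustment over all genes tested, threshold 0.05), with TMM CPM for display. Counts of 12-week oocytes were summed per set of shared library names, 5 a group, and the cumulus fit held a term for the library set. The IVF effect at different ages and the change with age in Natural ovaries came from 1 fit of all 29 ovaries. DESeq2 1.42.0, other scaling, no expression filter, a replicate block and leaving out each library were alternatives. The fits were checked on simulated data. Gene positions came from GENCODE vM21 (GRCm38). Named genes were the 6 members, the 5 genes most correlated with Cdh13 (log2 CPM, prior count 2), up to 4 called genes of each list and comparison, and Cdh5 and Cdh1. Where a count is 5 or fewer, the genes may be named whatever the rule. The members and lists were chosen with earlier results of these data known. Depth limits low genes: 3 counts equal 0.205 to 0.413 CPM in E18.5, 0.0707 to 0.982 in 12-week and 0.0761 to 0.178 in 39-week ovaries.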

Additional observations from a re-analysis of the deposited data

Results flagged for a closer look

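Of 82 groups of 4 to 10 libraries examined for the members, 12 had a library that stood apart from the others. The cut-off flags about 1 in 20 groups only where values are independent and normally distributed. Groups near 0 counts and single oocytes do not meet that, so 12 of 82 is not read against that rate. In the ovaries these were Ctnnb1 at 599 CPM in E18.5 IVF 3 (841 to 905 in the others), Cdh13 at 6.41 CPM in 39-week Natural 3 (3.11 to 3.56) and Cdh3 at 17.3 CPM in 39-week Natural 4 (12.4 to 13.5). In PGCs it was Cdh13 at 1.04 CPM in IVF 1 (0 to 0.105). In 12-week oocyte sets they were Cdh13 at 3.54 CPM in IVF 4 (1.12 to 1.80), Cdh3 at 23.3 CPM in IVF 3 (43.3 to 50.9) and Cdh11 at 0.49 CPM in Natural 2 (0 to 0.046). Among 39-week oocytes they were Cdh2 at 35.4 CPM in IVF 5 (15.7 to 25.5), Cdh11 at 8.49 CPM in Natural 4 (0 to 0.352) and at 2.08 CPM in IVF 7 (0 to 0.379), and Ctnna1 at 339 CPM in IVF 8 (144 to 230). In cumulus cells it was Cdh2 at 14.6 CPM in Natural 2 (26.1 to 29.1).

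Of 92 tests of whether the IVF effect of a member or list gene differed between ages, 2 passed edgeR's adjusted p of 0.05, both between 39 and 12 weeks. The 4 nectins and the linker Mllt4 were not among these 92 tests. The same fit called none of them in either comparison. Over all 19724 genes the shares called were 2.71% for 39 against 12 weeks and 0.314% for 12 weeks against E18.5. The IVF effect at 39 weeks minus that at 12 weeks was 4.96 for Cdh1 and 0.99 for Jup on the log2 scale, and for both genes the effect was below 0 at 12 weeks and above 0 at 39 weeks. Neither gene was called at 12 or 39 weeks alone. Without 39-week IVF 1 both lost their call (edgeR adjusted p of 0.118 and 0.0534).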

How the results depend on the processing

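In the 6 tables with a test, no member tested for IVF was called under any alternative run. In ovaries Cdh13 kept its direction at each age in all of them, but these directions chose the gene, so nothing is read from this. With DESeq2 the genes called numbered 1870 (edgeR 891) at E18.5, 635 (1) at 12 weeks, 1135 (45) at 39 weeks, 54 (4) in 12-week oocytes and 31 (1) in cumulus cells, and for the IVF effect 322 (62) at 12 weeks against E18.5 and 1531 (534) at 39 against 12 weeks. With no expression filter they numbered 9, 28, 19 and 104 in 12-week ovaries, 39-week ovaries, oocytes and cumulus cells and 16 for the IVF effect at 12 weeks against E18.5, which was 29 with RLE factors. The cumulus count was 0 without the library set term, and adult ovaries alone gave 3 for 39 against 12 weeks. The cause was not tested. Same-numbered libraries did not deviate together in every pair (r from -0.357 to 0.536), and the main fits did not pair them. Libraries of different number were not compared, so whether the numbers mark pairs in any table was not settled. With the replicate block the calls numbered 3, 0 and 24 at the 3 ovary ages and 0 in cumulus cells, and Ctnna1 at E18.5 was 0.00024. The 12-week oocyte sets carry no such numbers.

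Small differences turned sign in other settings: Cdh3 at 12 weeks was -0.012 with DESeq2, -0.0020 with RLE factors and -0.026 with no filter, and Ctnnb1 in Natural ovaries at 12 weeks against E18.5 was -0.0152 with RLE factors and -0.0151 with DESeq2. In 39-week oocytes 4 members had the higher IVF median, and 2 without Natural 6 and 9.

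Leaving out each library in turn gave 313 to 1973 calls at E18.5, 1 to 5 at 12 weeks, 0 to 123 at 39 weeks, 1 to 8 in oocytes and 1 to 5 in cumulus cells, 0 to 96 for the IVF effect at 12 weeks against E18.5, 80 to 1111 at 39 against 12 weeks, and 9017 to 9535 and 3026 to 3939 for the Natural ages. The lowest and highest counts came without Natural 2 and Natural 1 at E18.5 and without Natural 5 and IVF 1 at 39 weeks. Members called numbered 3 to 4 at 12 weeks against E18.5 and 0 to 1 at 39 against 12 weeks. Log2 differences that turned sign ranged, at E18.5, from -0.031 to 0.29 (Cdh11), -0.12 to 0.0076 (Ctnna1) and -0.14 to 0.067 (Ctnnb1). At 12 weeks they ranged from -0.10 to 0.10 (Cdh3), -0.096 to 0.0098 (Ctnna1) and -0.041 to 0.0900 (Ctnnb1), and at 39 weeks from -0.15 to 0.19 (Cdh2) and -0.18 to 0.075 (Cdh11). In PGCs they ranged from -0.13 to 1.03 (Cdh2), -0.32 to 0.11 (Cdh3) and -0.0060 to 0.16 (Ctnnb1), in oocytes from -0.17 to 0.36 (Cdh13), and in cumulus cells from -0.13 to 0.16 (Cdh2) and -0.12 to 0.040 (Ctnnb1). For the IVF effect they ranged from -0.0068 to 0.11 (Ctnnb1, 39 against 12 weeks), and at 12 weeks against E18.5 from -0.012 to 0.36 (Cdh11), -0.044 to 0.12 (Ctnna1) and -0.029 to 0.22 (Ctnnb1). Ctnnb1 in Natural ovaries at 12 weeks against E18.5 ranged from -0.072 to 0.16. The IVF effect at 39 against 12 weeks lost its call for Cdh1 and Jup without 12-week Natural 1 or 3, 12-week IVF 1 or 3, or 39-week Natural 4 or 5 or IVF 1, and for Jup also without 12-week Natural 4, 12-week IVF 5 or 39-week Natural 2. In Natural ovaries Nectin2 at 12 weeks against E18.5 lost its call without E18.5 Natural 1, 2 or 4 or 12-week Natural 2 or 3 and with no expression filter, and Apc at 39 against 12 weeks without 12-week Natural 2. Jup in Natural ovaries at 39 against 12 weeks lost its call without 12-week Natural 3 or 4 or 39-week Natural 2 or 4, and with the adult ovaries alone.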
